A study of Mus musculus with 3 samples.

Results

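The genes described are 43 mouse transporters that move amino acids and small peptides across cell membranes, taken as a named list out of 24171 genes with a symbol. The list was not chosen by a threshold on these data, but it was chosen with earlier results of these data known. By place and family it held 10 carriers of uptake at the brush border, 7 of exit at the basolateral membrane, 9 of the Slc38 family, 4 more of the Slc1 family, 8 more of the Slc7 family and 5 other carriers.

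Messenger RNA was sequenced in 3 libraries of epithelial cells sorted from the upper small intestine of C57BL/6 mice. The GIP-GFP library came from cells carrying a green reporter of the incretin hormone GIP, labelled as GIP-expressing enteroendocrine cells. The Ngn3-TOMATO library came from male mice in which Ngn3-Cre, expressed in endocrine progenitors, switched on a ROSA26-LoxP-STOP-LoxP-tomato reporter. The Ngn3-negative library held cells sorted as lacking Tomato, labelled non-enteroendocrine, and for the Tomato sorts cells stained for the blood cell marker CD45 were left out. No such gate is stated for the GIP-GFP sort, nor are the ages of the mice given. Because Cre leaves a lasting mark, Tomato can label any descendant of a cell that once expressed Ngn3, whatever type it became. Each library was a pool of RNA samples in equal amounts, from how many mice is not stated, so each group had 1 library, no difference between groups could be tested, and no p-value or SD is given.

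Dietary protein reaches the absorptive enterocyte as free amino acids and short peptides, which sodium-coupled or proton-coupled carriers take up at the brush border and which exchangers and facilitated carriers pass to the blood side. Several carriers work only as pairs: a light chain of the Slc7 family, which moves the substrate, is held at the membrane by a heavy chain, Slc3a1 at the brush border or Slc3a2 at the basolateral side. Enteroendocrine cells are scattered hormone-secreting cells of the same epithelium, and they release incretins and other peptides when nutrients, amino acids among them, reach the gut.

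Levels are given as scaled FPKM, the authors' fragments per kilobase of transcript summed over the transcripts of a gene and divided by 1 common number so that libraries average a total of 1000000. FPKM is per length, so levels can be compared between genes. Ratios are log2 of 1 level over another, each with a pseudocount of 1, for genes that reached 1 in either library, and a difference past 2-fold was counted as higher or lower. Intervals are 95% counting intervals from the authors' FPKM limits, which cover read counting and assignment within the library and nothing between mice or sorts. GIP-GFP had a summed coverage (mean depth times transcript length) of 592.1 Mb, Ngn3-TOMATO had 1380 Mb and Ngn3-negative had 1030 Mb. Where 3 levels follow a gene without library names, they are in the order GIP-GFP, Ngn3-TOMATO, Ngn3-negative, and where 2 log2 ratios to Ngn3-negative follow, GIP-GFP comes first. In pooled libraries, fewer cells of a type and less RNA per cell cannot be told apart.

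The libraries were checked against marker genes of the labelled cells. The 9 enteroendocrine markers summed to 18110 scaled FPKM in GIP-GFP, to 25070 in Ngn3-TOMATO and to 397.3 in Ngn3-negative, and none was at 0 in any library. Gip itself stood at 240700, 27930 and 727.3 in the same order. The enteroendocrine sum in Ngn3-TOMATO came largely from Chgb (12060) and Chga (8810). Gene by gene, 5 of the 9 enteroendocrine markers were past 2-fold higher in GIP-GFP than in Ngn3-TOMATO. Only Chga was past 2-fold lower, the other 3 (Chgb, Neurod1 and Pcsk1) were lower within 2-fold, and the median log2 ratio was 1.20. The enterocyte markers, 9 or 10 of 11 measured, summed to 12350, 8657 and 44010. The goblet cell markers, 7 or 8 of 8 measured, summed to 5998, 170200 and 34260, and the 6 Paneth cell markers to 2361, 26860 and 4766. The Ngn3-TOMATO library thus carried more goblet and Paneth cell transcript than the Ngn3-negative library, although its label reads enteroendocrine cells. The 7 lymphocyte markers summed to 376.9, 63.0 and 156.7, highest in the sort for which no CD45 gate is stated. The part of these other cells in the differences below was not tested, except where a value is given beside a result.

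Of the 43 genes, 34 reached 1 scaled FPKM in GIP-GFP, 36 did in Ngn3-TOMATO and 33 did in Ngn3-negative. The 7 that stayed below 1 in all 3 libraries were Slc6a14 (highest value 0.10), Slc6a18 (0.68), Slc38a4 (0.91), Slc7a3 (0.74), Slc7a11 (0.34), Slc7a14 (0.94) and Slc7a10, which was listed at 0 throughout. Slc6a8 had a failed estimate in Ngn3-negative and was treated as missing there (its listed value was 283.1). The summed level of the other 42 genes was 2277 in GIP-GFP, 1938 in Ngn3-TOMATO and, highest of all, 2599 in Ngn3-negative, so the totals lay close together while their make-up differed. Slc6a19 alone supplied 40.8% of that sum in GIP-GFP but 14.3% in Ngn3-TOMATO and 11.8% in the Ngn3-negative library. Slc38a11 supplied 8.60% in Ngn3-TOMATO and 0.102% and 0.117% in GIP-GFP and Ngn3-negative.

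**Figure D1:**
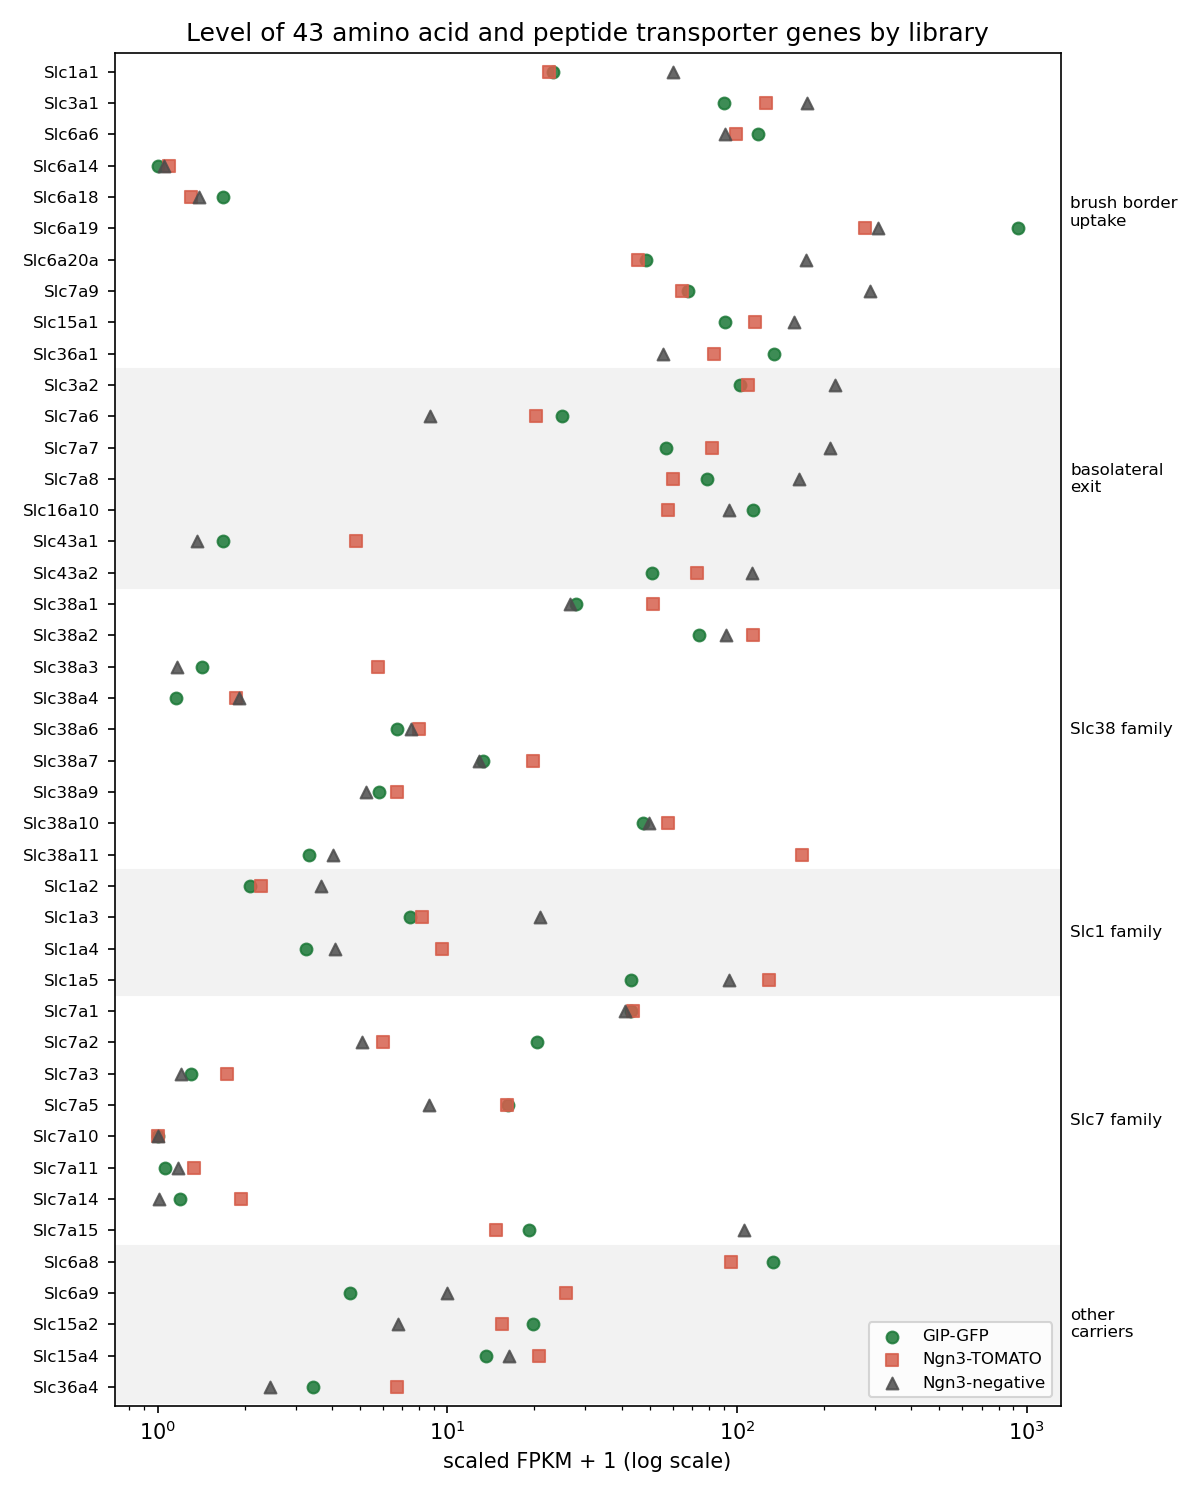
Level of each of the 43 transporter genes (grouped by role) as scaled FPKM plus 1 on a log axis, with 1 marker per library and no error bars. Slc6a19 is farthest to the right in GIP-GFP at 929.9, Slc38a11 stands apart in Ngn3-TOMATO at 166.7, and Slc6a8 has no Ngn3-negative marker.

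The comparison of Ngn3-TOMATO with Ngn3-negative sets the whole lineage against the rest of the epithelium. Of 35 transporters compared, 8 were higher in Ngn3-TOMATO, where 19.4% of all genes compared were higher, and 7 were lower, where 10% of all genes were lower. Their median log2 ratio was 0.21, against 0.03 over all genes. The comparison of GIP-GFP with Ngn3-negative sets the GIP cells against the same library. Of 33 transporters compared, 5 were higher in GIP-GFP against 21.2% of all genes, and 11 were lower against 13.8%. Their median was -0.28, against 0.07 over all genes. Between the reporter libraries, 2 of 36 transporters were higher in GIP-GFP and 6 were lower, against 8.11% and 8.82% of all genes, with a median of -0.16 against 0.08. Past 4-fold, Slc38a11 and Slc38a3 were higher in Ngn3-TOMATO than in Ngn3-negative (8.95% of all genes) and Slc7a9 and Slc7a15 lower (1.91%). In GIP-GFP, Slc7a2 was just past 4-fold higher than in Ngn3-negative (10.2% of all genes), and Slc7a9 and Slc7a15 were lower (2.78%). Over the settings tried, the log2 ratio of Slc7a2 there ranged from 1.42 to 2.28 and that of Slc7a9 from -2.30 to -1.90, so neither stayed past 4-fold throughout. Between the reporter libraries, Slc38a11, Slc38a3 and Slc6a9 were past 4-fold lower in GIP-GFP (3.22%) and 0 transporters were higher (2.08%). Slc38a3 ranged there from -3.23 to -0.85 over the settings and Slc6a9 from -2.74 to -1.79. These comparisons share libraries, so their counts are not independent of one another. With a pseudocount of 5, Slc38a3, Slc43a1, Slc1a4, Slc36a4, Slc7a6 and Slc15a2 in Ngn3-TOMATO and Slc6a9 in GIP-GFP were no longer past 2-fold from Ngn3-negative. With totals made equal without the 20 most abundant genes, neither were Slc1a5, Slc3a2, Slc43a2, Slc7a8 and Slc6a9 in GIP-GFP.

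**Figure D2:**
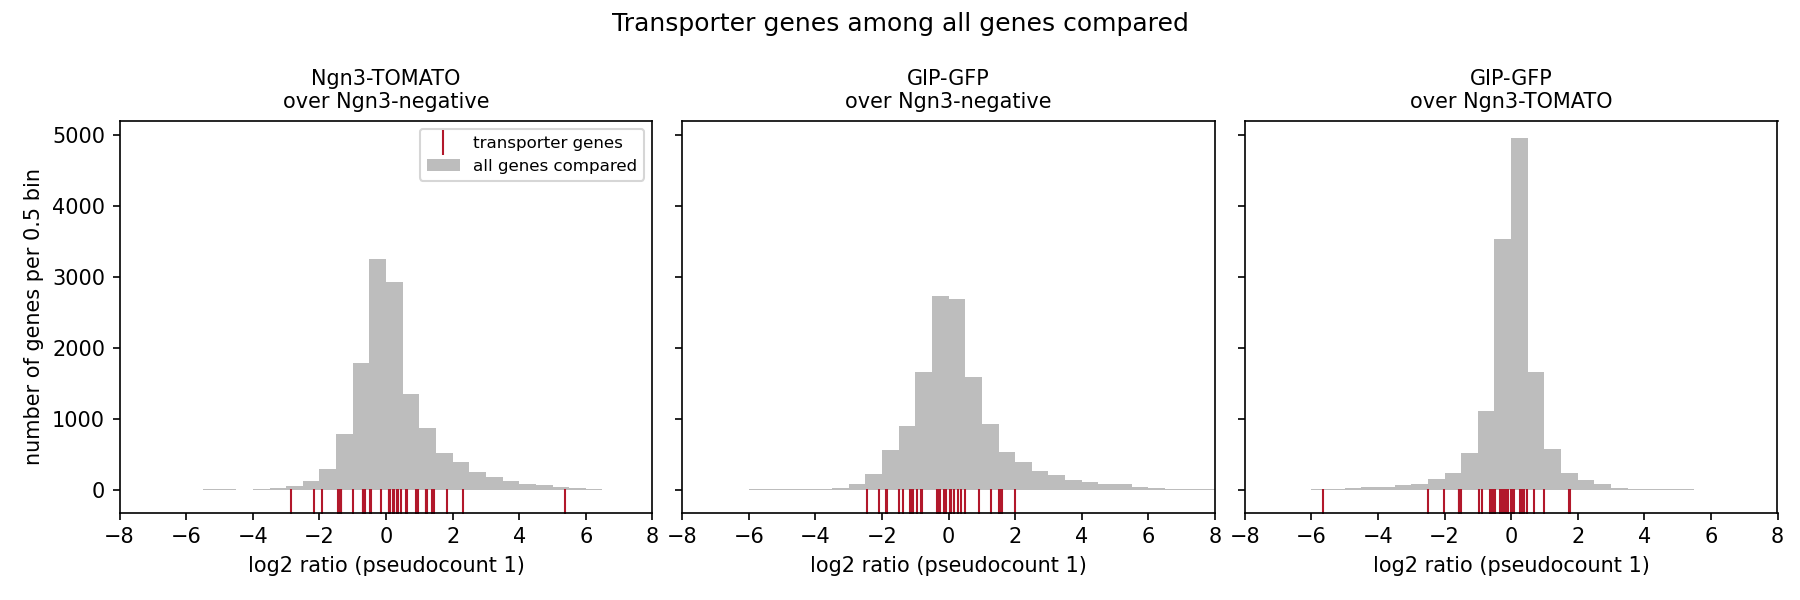
Number of genes per 0.5 bin of log2 ratio for all genes compared (grey bars), with the transporter genes as red ticks under the bars, in 1 panel per comparison. The tick far to the right in the left panel (5.38) and the tick far to the left in the right panel (-5.66) are both Slc38a11, and most other ticks lie within 2 of 0.

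**Figure D3:**
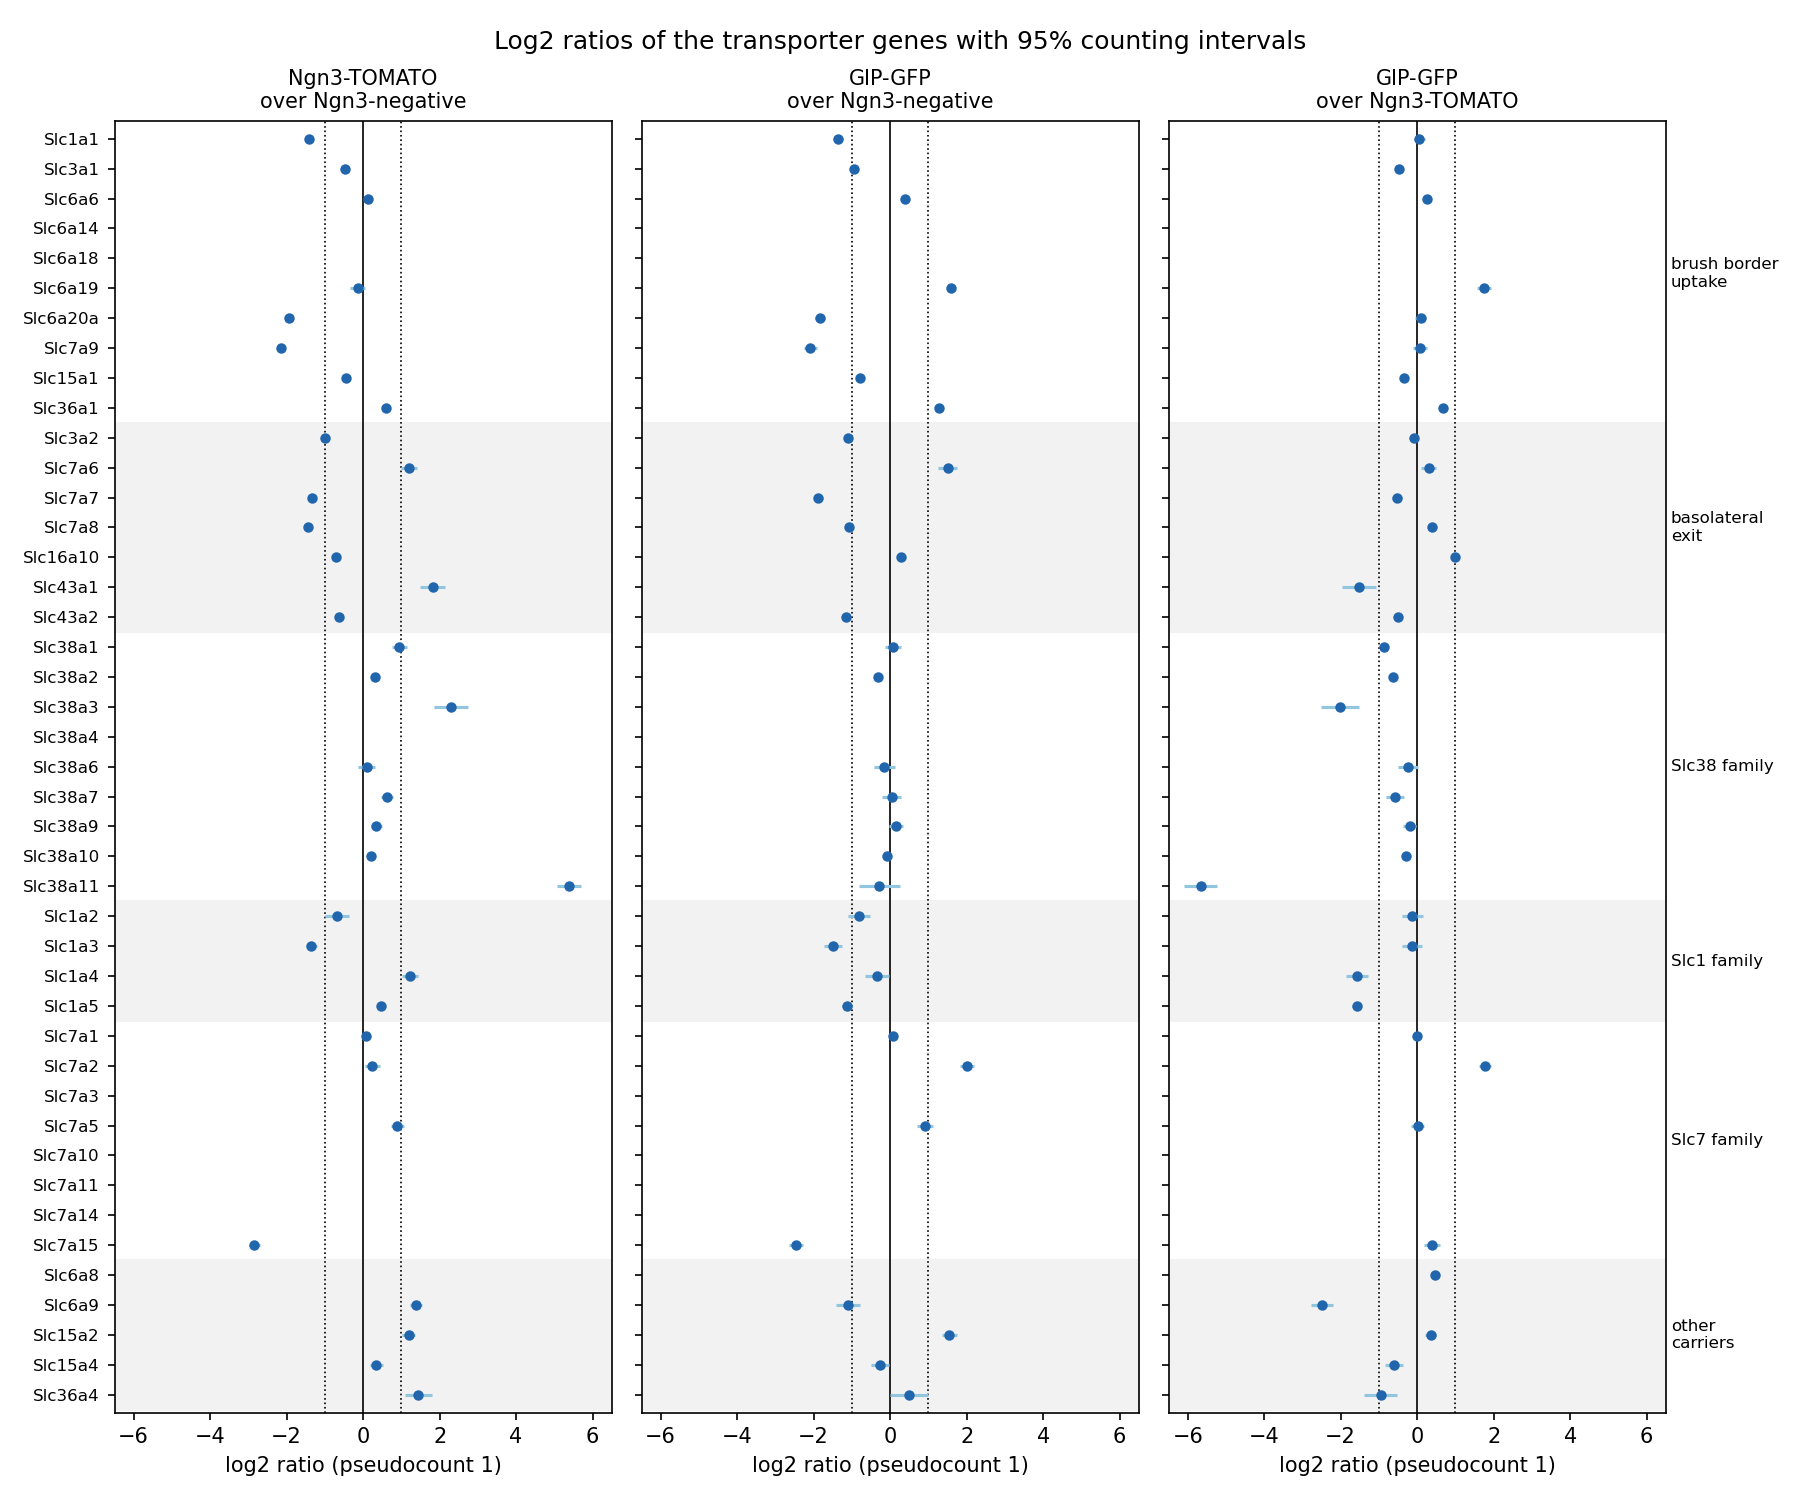
Log2 ratio of each transporter gene in the 3 comparisons, with 95% counting intervals as horizontal bars, a solid line at 0 and dotted lines at 2-fold either way. Genes below the filter or without a value have no point, and Slc38a11, Slc7a15, Slc7a9, Slc6a9 and Slc7a2 lie farthest from 0 among those at 10 or more scaled FPKM.

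The most abundant brush border carrier was Slc6a19 (B0AT1), the main sodium-coupled carrier of neutral amino acids of the small intestine. Its gene lies on chromosome 13 (mm10 73679745-73704865, minus strand). Slc6a19 stood at 929.9 scaled FPKM in GIP-GFP, at 276.1 in Ngn3-TOMATO and at 305.3 in Ngn3-negative, and it was the most abundant of the 43 genes in each library. Its rank among all genes was 73 in GIP-GFP, against 380 in Ngn3-TOMATO and 442 among Ngn3-negative cells. The GIP-GFP library was the high one, and the other two lay close together. Over Ngn3-negative, Slc6a19 in GIP-GFP was 3.04-fold higher, a log2 ratio of 1.60 (1.56 to 1.65), and 3.36-fold higher than in Ngn3-TOMATO, a log2 ratio of 1.75 (1.56 to 1.94). Between Ngn3-TOMATO and Ngn3-negative Slc6a19 had a log2 ratio of -0.14 (-0.34 to 0.05), an interval that holds 0.

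Both measured transcript models of Slc6a19 span 73681157 to 73700695 on chromosome 13 and differ in spliced length. The longer, of 2439 bases, carried 88.0% of the gene's level in GIP-GFP, a like 87.4% in Ngn3-TOMATO and 75.3% in Ngn3-negative. This longer model stood at 818.5, 241.1 and 229.9 scaled FPKM and the shorter, of 2038 bases, at 111.4, 34.93 and 75.42, both highest in GIP-GFP. An antisense gene, Slc6a19os, overlaps the locus and was also highest in GIP-GFP, at 38.51 against 8.88 in Ngn3-TOMATO and only 1.45 in Ngn3-negative. The library kit keeps no strand, so reads of the sense and antisense genes cannot be told apart where they overlap.

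The enterocyte markers summed to 12350 in GIP-GFP, above the 8657 of Ngn3-TOMATO and below the 44010 of Ngn3-negative, and their part in the Slc6a19 level was not tested. Cltrn (collectrin), a membrane protein that helps carriers of this family reach the surface, stood at 62.91, 44.24 and 1.44, high in both reporter libraries and low in Ngn3-negative, with log2 ratios of 4.71 and 4.21. The level of Slc6a19 divided by that of Cltrn was 14.8 in GIP-GFP, then 6.24 in Ngn3-TOMATO and then 212 in Ngn3-negative.

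**Figure D4:**
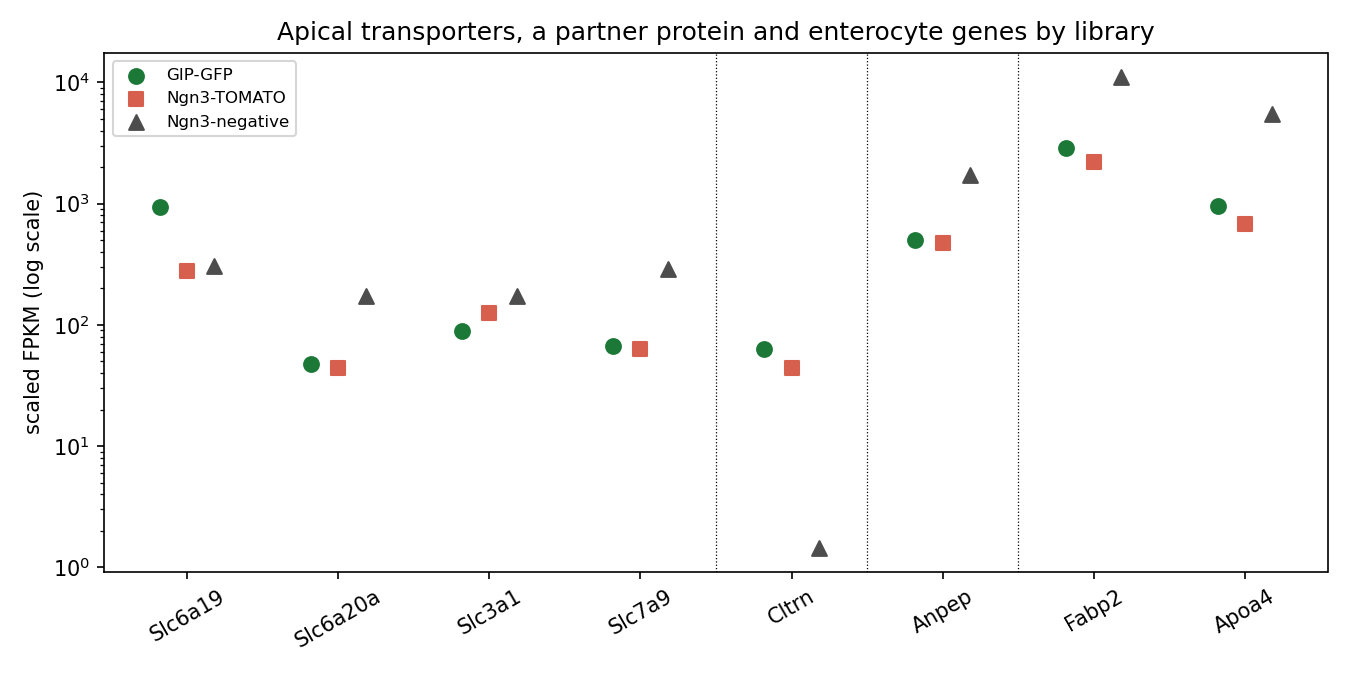
Level in scaled FPKM (log axis) of 4 apical transporter genes, the partner gene Cltrn, the peptidase gene Anpep and the enterocyte genes Fabp2 and Apoa4, with 1 marker per library and no error bars. Slc6a19 is highest in GIP-GFP (929.9), Cltrn lowest in Ngn3-negative (1.44), and Slc6a20a, Slc3a1, Slc7a9, Anpep, Fabp2 and Apoa4 are highest in Ngn3-negative.

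The wider list of partners and brush border peptidases, 15 genes that supply or accompany these carriers, was mostly lower in the reporter libraries. In Ngn3-TOMATO 12 of 15 were lower than in Ngn3-negative and 1 was higher (median log2 ratio -1.87), and in GIP-GFP 12 were lower and 1 higher (median -1.78), the higher one being Cltrn in both. Anpep, aminopeptidase N, was the most abundant at 503.1 in GIP-GFP, 471.8 in Ngn3-TOMATO and far higher, 1731, in Ngn3-negative. Ggt1, which cleaves glutathione, had log2 ratios of -2.69 in GIP-GFP and -2.87 in Ngn3-TOMATO, and the peptidase gene Ace had -2.61 and -2.82. Between the reporter libraries 14 of the 15 lay within 2-fold.

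Slc6a20a and Slc7a9 were lower in both reporter libraries. Slc6a20a, a proline transporter, stood at 47.44 in GIP-GFP, at 44.46 in Ngn3-TOMATO and at 172.3 in Ngn3-negative, with log2 ratios to Ngn3-negative of -1.84 and -1.93. Its close relative Slc6a20b was at 2.60 or less in each library, and the sources used here do not say how reads that match both were assigned. Slc7a9, the light chain that exchanges cystine and dibasic amino acids for neutral ones, stood at 67.01 in GIP-GFP, at 63.76 in Ngn3-TOMATO and at 287.9 in Ngn3-negative. The reporter libraries matched each other closely and both were far below Ngn3-negative. Slc7a9 was 4.25-fold lower in GIP-GFP, a log2 ratio of -2.09 (-2.26 to -1.92), and 4.46-fold lower in Ngn3-TOMATO, a log2 ratio of -2.16 (-2.26 to -2.06). Between the reporter libraries Slc7a9 had a log2 ratio of 0.07 (-0.11 to 0.26).

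The heavy chain Slc3a1 (rBAT), which pairs with Slc7a9, differed less than its light chain. It stood at 89.44 in GIP-GFP, at 125.1 in Ngn3-TOMATO and at 173.5 in Ngn3-negative, within 2-fold in each comparison (log2 ratios to Ngn3-negative of -0.95 and -0.47). Slc7a9 divided by Slc3a1 was 1.66 in Ngn3-negative, 0.749 in GIP-GFP and 0.510 in Ngn3-TOMATO, so the more abundant chain changed from light to heavy. Slc3a1 overlaps Prepl, which stood at 87.26, 53.92 and 41.52, and part of the reads at the shared end could belong to either. Slc1a1 (EAAT3), the carrier of glutamate and aspartate, stood at 22.27, 21.37 and 58.98, with log2 ratios to Ngn3-negative of -1.37 and -1.42.

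The proton-coupled and taurine carriers of the brush border showed other orders. Slc15a1 (PepT1), which takes up dipeptides and tripeptides, stood at 90.34 in GIP-GFP, at 114.3 in Ngn3-TOMATO and at 156.6 in Ngn3-negative, within 2-fold throughout. Slc36a1 (PAT1), which carries proline, glycine and alanine with protons, went the other way at 133.4, 82.53 and 54.64. Over Ngn3-negative it was 2.42-fold higher in GIP-GFP, a log2 ratio of 1.27 (1.21 to 1.34), and its log2 ratio in Ngn3-TOMATO was 0.59 (0.53 to 0.64). Slc6a6, the taurine transporter, stood at 117.7, 98.65 and 90.01, a spread of less than 2-fold. Of the 8 brush border carriers compared, 2 were higher and 3 lower in GIP-GFP than in Ngn3-negative, where 21.2% of all genes were higher and 13.8% lower. In Ngn3-TOMATO 0 were higher and 3 lower, beside the shares of all genes given above for that comparison.

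At the basolateral membrane, the heavy chain Slc3a2 (4F2hc, CD98) and the light chains Slc7a7 and Slc7a8 stood highest in Ngn3-negative. Slc3a2 stood at 101.3 in GIP-GFP, at 108.1 in Ngn3-TOMATO and at 217.0 in Ngn3-negative. Its log2 ratio was -1.09 (-1.18 to -1.004) in GIP-GFP and -0.998 in Ngn3-TOMATO, the latter just short of 2-fold. A transcript of Slc3a2 that begins upstream (8723369 on chromosome 19, minus strand) carried 13.3% of the gene in GIP-GFP and 12.2% in Ngn3-TOMATO and was listed at 0 in Ngn3-negative. The rest came from a model beginning at 8713897.

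Slc7a7 (y+LAT1), which releases dibasic amino acids in exchange for neutral ones, stood at 55.72 in GIP-GFP, at 81.06 in Ngn3-TOMATO and at 208.0 in Ngn3-negative. Its log2 ratios to Ngn3-negative were -1.88 (-2.00 to -1.76) and -1.35 (-1.42 to -1.28). All of its measured level came from the model that starts at 54409472 on chromosome 14, and it overlaps Oxa1l, which was also lower in the reporter libraries (53.11, 50.18 and 78.28). Slc7a8 (LAT2), an exchanger of neutral amino acids, stood at 77.6, 59.2 and 163.4, with log2 ratios of -1.06 and -1.45. Slc7a6 (y+LAT2), a relative of Slc7a7 with a similar exchange, was higher in both reporter libraries, at 23.86, 19.19 and 7.74, with log2 ratios of 1.51 and 1.21.

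The summed light chains that pair with Slc3a2 stayed in a near constant proportion to it, at 1.70 in GIP-GFP, at 1.62 in Ngn3-TOMATO and at 1.78 in Ngn3-negative, while their make-up differed. Slc7a7 supplied 53.8% of them in Ngn3-negative, 46.4% in Ngn3-TOMATO and 32.3% in GIP-GFP. Slc7a6 supplied 2.00% in Ngn3-negative, 11.0% in Ngn3-TOMATO and 13.8% in GIP-GFP. Slc7a5 (LAT1), an exchanger of large neutral amino acids, supplied 1.98%, 8.60% and 8.80% in that order, from levels of 7.65, 15.03 and 15.16.

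The carriers of exit that need no heavy chain were mixed. Slc16a10 (TAT1), which lets aromatic amino acids out, stood at 113.1 in GIP-GFP, at 56.67 in Ngn3-TOMATO and at 92.74 in Ngn3-negative, within 2-fold in each comparison. Slc43a2 (LAT4), a facilitated carrier of branched-chain amino acids, phenylalanine and methionine, stood at 50.07, 71.86 and 111.9, with a log2 ratio of -1.14 in GIP-GFP. That difference rested on the sum over its transcripts: for the most abundant transcript alone the log2 ratio was -0.36. Slc43a1 (LAT3), its relative, was low at 0.69, 3.83 and 0.37, with a log2 ratio of 1.82 (1.48 to 2.15) in Ngn3-TOMATO. Of the exit carriers compared, 4 of 6 were lower and 1 higher in GIP-GFP than in Ngn3-negative, where 13.8% of all genes were lower and 21.2% higher. In Ngn3-TOMATO 2 of 7 were lower and 2 higher, beside the shares of all genes given above for that comparison.

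Slc7a15, a light chain related to Slc7a9 and grouped here with the rest of its family, had the largest drop relative to Ngn3-negative among the 43 genes in both reporter libraries. Slc7a15 (chromosome 12, mm10 8528483-8599066, minus strand) stood at 18.13 scaled FPKM in GIP-GFP, at 13.7 in Ngn3-TOMATO and at 104.6 in Ngn3-negative. Both reporter libraries were far below Ngn3-negative. Slc7a15 was 5.52-fold lower in GIP-GFP, a log2 ratio of -2.47 (-2.65 to -2.28), and 7.18-fold lower in Ngn3-TOMATO, a log2 ratio of -2.85 (-2.98 to -2.71). Both ratios share the Ngn3-negative library, in which enterocyte markers were also highest, and their part in the drop was not tested.

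Promoters are shown for Slc6a20a, Slc7a9, Slc7a7 and Slc7a15, a choice from the 7 genes past 2-fold lower in both reporter libraries. Those of the rest, Slc1a1, Slc1a3 and Slc7a8, are not shown. Of these, Slc1a3 and Slc7a8 also have a RefSeq start at that of the measured transcript. Each promoter is given as the 250 bases before the RefSeq start (GRCm38.p6), 5′ to 3′ on the gene's strand. Capitals mark matches to the motifs searched on both strands: GTTAAT, part of the site of HNF1 factors, CAAAGTCCA, a site of HNF4, AGATAA, which factors of the GATA family bind, the E-box letters CAGATG, TGATGNAA, an element of CCAAT enhancer binding proteins and ATF factors, and the TATA box as TATAAA. None of these letter strings holds another. The regions are chr9:123678833-123679082 (minus strand) for Slc6a20a, chr7:35448842-35449091 (plus strand) for Slc7a9, chr14:54409473-54409722 (minus strand) for Slc7a7 and chr12:8539567-8539816 (minus strand) for Slc7a15.
Slc6a20a: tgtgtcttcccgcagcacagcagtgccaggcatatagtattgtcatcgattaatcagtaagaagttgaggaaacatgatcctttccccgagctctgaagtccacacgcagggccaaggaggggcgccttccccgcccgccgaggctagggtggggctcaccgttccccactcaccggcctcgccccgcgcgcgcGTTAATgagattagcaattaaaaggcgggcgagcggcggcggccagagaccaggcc
Slc7a9: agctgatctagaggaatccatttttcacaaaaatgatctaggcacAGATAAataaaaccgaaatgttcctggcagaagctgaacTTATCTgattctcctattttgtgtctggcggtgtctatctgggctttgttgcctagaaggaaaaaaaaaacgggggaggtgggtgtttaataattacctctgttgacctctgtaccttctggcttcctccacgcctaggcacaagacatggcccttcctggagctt
Slc7a7: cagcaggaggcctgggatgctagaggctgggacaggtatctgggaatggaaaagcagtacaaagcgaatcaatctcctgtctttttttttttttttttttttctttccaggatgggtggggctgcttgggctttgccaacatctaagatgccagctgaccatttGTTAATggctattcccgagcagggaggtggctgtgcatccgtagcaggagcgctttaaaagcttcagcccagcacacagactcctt
Slc7a15: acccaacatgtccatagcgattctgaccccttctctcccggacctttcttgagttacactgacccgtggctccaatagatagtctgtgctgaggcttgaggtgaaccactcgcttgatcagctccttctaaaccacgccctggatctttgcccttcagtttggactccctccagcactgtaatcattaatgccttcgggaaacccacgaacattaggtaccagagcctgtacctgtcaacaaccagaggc
GTTAAT was found 56 bases before the start of Slc6a20a and 86 bases before that of Slc7a7, where 6.44% of 32817 promoters of this length hold it. AGATAA was found in Slc7a9 at 205 bases and, on the other strand, at 166 bases before the start, where 9.99% of promoters hold it. No searched motif was found in this window of Slc7a15, whose RefSeq start lies 21 bases from that of the measured transcript. A match is a description of letters and not of binding.

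The Slc38 family, sodium-coupled carriers of glutamine and other neutral amino acids, held the largest difference among the 43 genes. Slc38a11 (chromosome 2, mm10 65316430-65364034, minus strand), a member whose substrates are less well known, stood at 2.32 scaled FPKM in GIP-GFP, at 166.7 in Ngn3-TOMATO and at 3.04 in Ngn3-negative. Ngn3-TOMATO was the one high library. Over Ngn3-negative, Slc38a11 was 41.6-fold higher there, a log2 ratio of 5.38 (5.07 to 5.69), and 50.5-fold higher than in GIP-GFP, where the log2 ratio of GIP-GFP over Ngn3-TOMATO was -5.66 (-6.09 to -5.22). Without the pseudocount the ratios of the levels were 54.9 and 71.8. Between GIP-GFP and Ngn3-negative Slc38a11 had a log2 ratio of -0.28 (-0.81 to 0.25).

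All of Slc38a11 came from 1 transcript of 1606 bases, read at a mean depth of 111.3 per base in Ngn3-TOMATO, 0.643 in GIP-GFP and 1.52 in Ngn3-negative. In rank it was gene 773 of Ngn3-TOMATO, 10568 of Ngn3-negative and 11974 of GIP-GFP. Goblet and Paneth cell markers were also highest in Ngn3-TOMATO (summed to 170200 and 26860). They summed to 34260 and 4766 in Ngn3-negative and to 5998 and 2361 in GIP-GFP. The enteroendocrine marker Chga was also highest in Ngn3-TOMATO, at 8810 against 321.4 in GIP-GFP and 124.5 in Ngn3-negative. Of the 9 enteroendocrine markers, Chga alone was past 2-fold lower in GIP-GFP than in Ngn3-TOMATO, and 5 were past 2-fold higher. The other 3, Chgb, Neurod1 and Pcsk1, were also highest in Ngn3-TOMATO, within 2-fold of GIP-GFP. The part of each of these cell types in the Slc38a11 level was not tested.

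The other Slc38 genes lay within 2-fold in each comparison or were low. Slc38a2 (SNAT2), a widely expressed carrier of small neutral amino acids, stood at 72.96 in GIP-GFP, at 112.8 in Ngn3-TOMATO and at 90.49 in Ngn3-negative. Slc38a1 (SNAT1), a glutamine carrier, stood at 26.91, 50.2 and 25.58. Its log2 ratio in Ngn3-TOMATO over Ngn3-negative was 0.95 (0.75 to 1.14), just short of 2-fold, and ranged from 0.67 to 3.42 over the settings tried. Slc38a10 stood at 46.23, 56.62 and 48.78. The lysosomal carriers Slc38a7 and Slc38a9, the latter an arginine sensor of mTORC1, stood at 12.24, 18.85 and 11.89 and at 4.83, 5.69 and 4.26. Slc38a6 stood at 5.73, 6.97 and 6.48. Slc38a3 (SNAT3), a glutamine carrier, was at 0.42, 4.77 and 0.17, and its log2 ratio of 2.30 (1.86 to 2.74) in Ngn3-TOMATO rested on this low level. Of the family, 2 of 8 were higher and none lower in Ngn3-TOMATO than in Ngn3-negative, where 19.4% of all genes compared were higher. The 2 were Slc38a11 and the low Slc38a3. In GIP-GFP all 7 compared lay within 2-fold of Ngn3-negative, where 21.2% of all genes were higher and 13.8% lower. Whether the family differs from all genes was not tested.

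**Figure D5:**
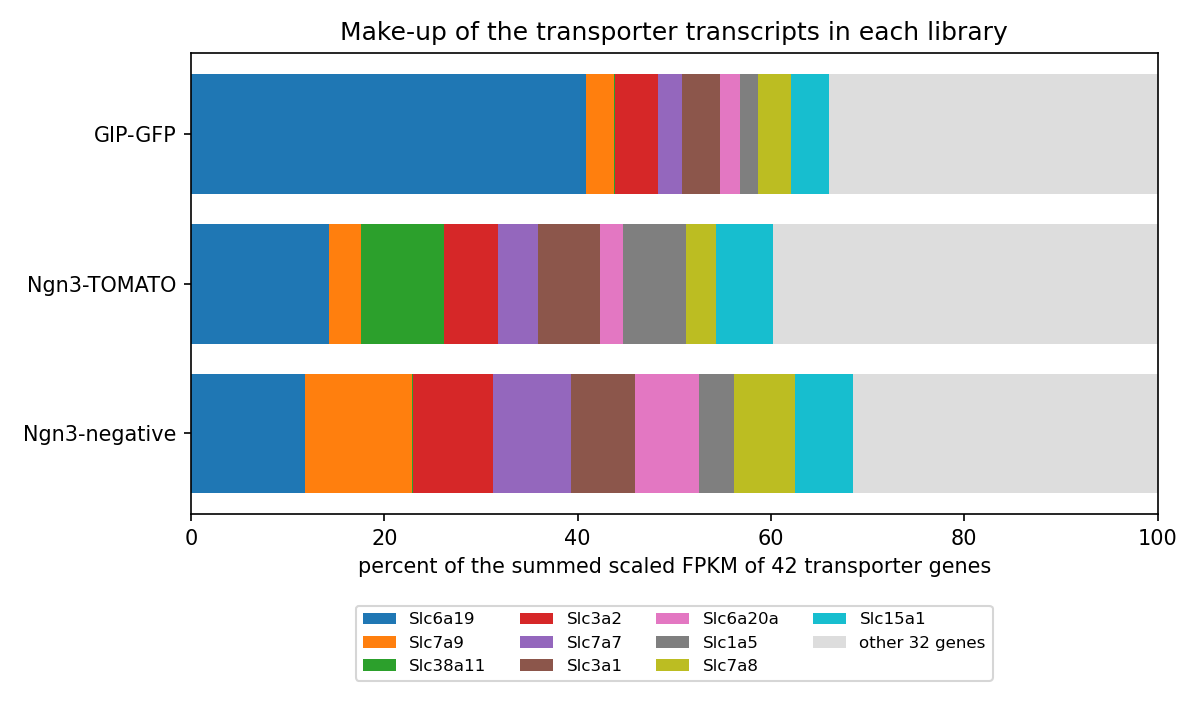
Share of the summed scaled FPKM of 42 transporter genes (Slc6a8 left out) held by the 10 genes with the largest share in any library and by the other 32 genes, in 1 stacked bar per library that runs to 100%. Slc6a19 fills 40.8% of the GIP-GFP bar, Slc38a11 is visible only in Ngn3-TOMATO (8.60%), and Slc7a9 takes 11.1% of the Ngn3-negative bar against 2.94% in GIP-GFP.

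Among the Slc1 carriers, Slc1a5 (ASCT2), a sodium-dependent exchanger of glutamine and other neutral amino acids, stood at 42.06 in GIP-GFP, at 127.6 in Ngn3-TOMATO and at 92.72 in Ngn3-negative. GIP-GFP was the low library, with log2 ratios of -1.58 (-1.70 to -1.46) to Ngn3-TOMATO and -1.12 (-1.25 to -0.998) to Ngn3-negative. Slc1a4 (ASCT1), which exchanges alanine, serine and cysteine, stood at 2.24, 8.62 and 3.11, with a log2 ratio of -1.57 (-1.86 to -1.28) for GIP-GFP over Ngn3-TOMATO. The glutamate carriers Slc1a3 (EAAT1) and Slc1a2 (EAAT2) were highest in Ngn3-negative, Slc1a3 at 6.46, 7.17 and 19.96 and Slc1a2 at 1.08, 1.27 and 2.67.

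Of the carriers of cationic amino acids, Slc7a1 (CAT1), the widespread form, stood at 42.26 in GIP-GFP, at 42.7 in Ngn3-TOMATO and at 40.15 in Ngn3-negative, nearly level. Slc7a2 (CAT2), an arginine and lysine carrier best known from liver and activated macrophages, stood at 19.34, 4.99 and 4.08. GIP-GFP was the one high library. Over Ngn3-negative, Slc7a2 was 4.01-fold higher there, a log2 ratio of 2.00 (1.82 to 2.18), and 3.39-fold higher than in Ngn3-TOMATO, a log2 ratio of 1.76 (1.61 to 1.92). Between Ngn3-TOMATO and Ngn3-negative the log2 ratio of Slc7a2 was 0.24 (0.05 to 0.43). Its measured models have the same ends on chromosome 8 (40862367 to 40922070), and the one of 7717 bases carried 70.6% of the gene in GIP-GFP but 38.9% in Ngn3-TOMATO and 49.3% of it in Ngn3-negative. The 4 myeloid markers summed to 13.6, 9.07 and 7.41 in these libraries, the same order as Slc7a2. Of these markers Lyz2 stood at 10.49, 4.44 and 2.06 and Cd68 at 2.89, 4.54 and 5.17, Csf1r was below 1 in each library, and Adgre1 was listed at 0 in GIP-GFP and Ngn3-TOMATO. The part of myeloid cells in the Slc7a2 level was not tested.

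Of the remaining carriers, Slc6a9 (GlyT1), the sodium-coupled glycine transporter, was highest in Ngn3-TOMATO and lowest in GIP-GFP. It stood at 3.62 scaled FPKM in GIP-GFP, at 24.81 in Ngn3-TOMATO and at 8.96 in Ngn3-negative, each well apart from the others. Over Ngn3-negative, Slc6a9 was 2.59-fold higher in Ngn3-TOMATO, a log2 ratio of 1.37 (1.21 to 1.53), and 5.59-fold higher than in GIP-GFP, where the log2 ratio of GIP-GFP over Ngn3-TOMATO was -2.48 (-2.77 to -2.19). In GIP-GFP over Ngn3-negative the log2 ratio of Slc6a9 was -1.11 (-1.42 to -0.79). The overlapping genes Ccdc24 and B4galt2 were listed at 27.38 and 4.1 in GIP-GFP and at 0 in Ngn3-TOMATO and Ngn3-negative. Without strand, reads that Slc6a9 shares with them cannot be told apart.

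The promoters of Slc38a11 and Slc6a9 are shown beside the earlier ones because these genes were the highest in Ngn3-TOMATO among those at 10 or more scaled FPKM and past 4-fold. They are the 250 bases before the RefSeq start (GRCm38.p6), 5′ to 3′, at chr2:65364027-65364276 (minus strand) and chr4:117835008-117835257 (plus strand), with the same motifs in capitals.
Slc38a11: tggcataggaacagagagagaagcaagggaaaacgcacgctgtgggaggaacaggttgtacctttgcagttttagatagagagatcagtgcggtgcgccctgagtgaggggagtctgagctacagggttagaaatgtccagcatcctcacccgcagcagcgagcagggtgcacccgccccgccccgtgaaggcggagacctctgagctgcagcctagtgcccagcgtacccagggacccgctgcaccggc
Slc6a9: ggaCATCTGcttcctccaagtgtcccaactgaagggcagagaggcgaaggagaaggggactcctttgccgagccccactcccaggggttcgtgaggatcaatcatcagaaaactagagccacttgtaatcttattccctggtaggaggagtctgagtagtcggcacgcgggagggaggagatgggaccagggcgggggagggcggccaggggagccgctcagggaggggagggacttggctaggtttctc
The window of Slc38a11 held none of the 6 motifs. That of Slc6a9 held CAGATG on the other strand 247 bases before the start, where 14.5% of promoters hold it.

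Slc15a2 (PepT2), the high-affinity relative of PepT1, stood at 18.73 in GIP-GFP, at 14.43 in Ngn3-TOMATO and at 5.77 in Ngn3-negative, with log2 ratios to Ngn3-negative of 1.54 (1.35 to 1.74) and 1.19 (1.013 to 1.363). PepT1 stayed the more abundant in each library, but the level of Slc15a1 divided by that of Slc15a2 was 27.1 in Ngn3-negative, 7.92 in Ngn3-TOMATO and 4.82 in GIP-GFP. Slc15a4, a lysosomal carrier of histidine and peptides, stood at 12.56, 19.7 and 15.33. It overlaps Glt1d1, which was also highest in Ngn3-TOMATO (2.595, 13.71 and 1.976). The log2 ratio of Slc15a4 in Ngn3-TOMATO over Ngn3-negative ranged from -0.05 to 0.48 over the settings tried. Slc36a4, a proton-independent relative of PAT1, stood at 2.45, 5.68 and 1.45, with a log2 ratio of 1.45 (1.08 to 1.81) in Ngn3-TOMATO over Ngn3-negative. Slc6a8, the creatine transporter, stood at 132.0 in GIP-GFP and 94.78 in Ngn3-TOMATO, within 2-fold, and was not compared with Ngn3-negative.

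Genes around the transporters were described from lists of the pathway. Counts of these lists, and of the partners and peptidases above, stand beside the shares of all genes given earlier for each comparison. No list was tested against all genes. Of 29 other amino acid transporters 8 passed the filter in each comparison with Ngn3-negative, not all of them the same genes. In Ngn3-TOMATO 3 of the 8 were higher and 1 lower (median 0.61), and in GIP-GFP likewise 3 and 1 (median 0.15). The most abundant in both reporter libraries was Slc6a7, a proline transporter best known from brain, at 95.81 in GIP-GFP, at 112.7 in Ngn3-TOMATO and at 11.52 in Ngn3-negative. Its log2 ratios were 2.95 and 3.18, opposite in direction to those of Slc6a20a, which also carries proline. Slc7a4 had a log2 ratio of 2.01 in Ngn3-TOMATO, and Slc17a9, the vesicular nucleotide transporter, one of 2.00.

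Of 11 receptors that sense amino acids or peptides, 3 of 5 compared were higher in Ngn3-TOMATO than in Ngn3-negative and 1 was lower (median 2.73), and in GIP-GFP 4 of 6 were higher and 2 lower (median 1.26). Gpr142, a receptor of aromatic amino acids, stood at 40.08 in GIP-GFP, at 6.96 in Ngn3-TOMATO and at 0.20 in Ngn3-negative. Grm4, a glutamate receptor, was below 1 in GIP-GFP and Ngn3-negative (0.99 and 0.78) and had a log2 ratio of 3.87 in Ngn3-TOMATO over Ngn3-negative. Casr, the calcium-sensing receptor, which amino acids also act on, stood at 2.67, 12.5 and 0.35 in the order used above. Lpar5, a receptor reported to respond to peptides, stood at 19.54, 25.01 and 49.0. It led the list in Ngn3-negative and was level with Grm4 at the top in Ngn3-TOMATO. Gpr142 was thus highest in GIP-GFP and Grm4 and Casr in Ngn3-TOMATO.

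Of 26 genes of the response to amino acid shortage driven by Atf4, 9 of 24 were higher and none lower in Ngn3-TOMATO than in Ngn3-negative (median 0.57), and 5 of 23 higher and 4 lower in GIP-GFP (median -0.10). Between the reporter libraries 1 of 25 was higher in GIP-GFP and 6 were lower. Atf4 itself stood at 299.8 in GIP-GFP, at 488.2 in Ngn3-TOMATO and at 288.0 in Ngn3-negative, and Psat1, an enzyme of serine synthesis, at 7.57, 90.2 and 15.8. Atf3, a stress-induced factor, stood at 186.7, 727.8 and 89.35. Vldlr, a lipoprotein receptor, had the largest log2 ratio at 3.81 in GIP-GFP.

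Of 22 genes of amino acid sensing by mTORC1, the kinase complex of growth control, 1 was higher and 2 lower in Ngn3-TOMATO (median 0.15) and 3 higher and 1 lower in GIP-GFP (median 0.29). Lamtor2, a Ragulator subunit, was the most abundant at 155.5, 209.8 and 220.2. Rragb, a Rag GTPase, stood at 19.59 in GIP-GFP, at 4.84 in Ngn3-TOMATO and at 0.08 in Ngn3-negative, while its relative Rragd stood at 22.56, 19.15 and 71.52. Of 26 genes of amino acid breakdown and glutamine use, 6 of 23 were higher and 7 lower in Ngn3-TOMATO (median -0.24). In GIP-GFP 5 of 22 were higher and 6 lower (median -0.49), beside the same shares of all genes. Cps1, the first enzyme of the urea cycle, was at 605.4, 707.7 and 1980, and Arg1, which splits arginine, at 11.51, 50.92 and 1.12. Ass1, which makes argininosuccinate on the way to arginine, stood at 23.28, 9.64 and 0.77, and Tat, tyrosine aminotransferase, at 61.54, 12.73 and 0.49, both highest in GIP-GFP.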

How the data were processed

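Polyadenylated RNA of 3 pooled libraries (TruSeq, Genome Analyzer II) was deposited as 1 line per UCSC transcript model, 59120 in each. Reads were processed with FastQC, TopHat 1.5.0 and Cufflinks on mm10, per the submitters' processing notes; the sources used here do not give the Cufflinks version. The authors' values are, per the file headers, an FPKM per transcript, a lower and an upper limit of it, and the coverage (mean read depth per base). The deposited FPKM sum to about 1.02e+10, 1.07e+10 and 1.04e+10 per library, so the library term is not the usual one. Gene symbols came from GENCODE M21, matched to the transcripts without strand (an end within 10 bases or an overlap of at least 50%, then the closest in ends, spliced length and span), and 51742 transcripts received a symbol. FPKM of transcripts of 200 bases or more were summed per symbol and divided by 8177. Transcripts with status FAIL (169 in GIP-GFP, then 606 and 428) or HIDATA (0, 4 and 9) left their gene missing in that library, and mitochondrial genes were left out.

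The SE was taken as the distance from FPKM to its upper limit divided by 2, and intervals on the log2 ratio combine both libraries. The calculation was tested on simulated data. Python 3.11.15, numpy 2.4.6, pandas 2.3.3 and matplotlib 3.10.9 were used. No script tested differences between groups. The members and the gene lists were chosen with earlier results of these data known. Every member is accounted for; full values, fold and interval were given for Slc6a19, Slc38a11 and each member past 4-fold at 10 or more scaled FPKM, and other lists name the most abundant gene and those with the largest log2 ratios, at most 4. RefSeq promoters were found for 34 of the 43 genes, 29 with a start within 25 bases of the most abundant measured transcript. A choice of 6 promoters is shown, and those of Slc6a19 and others that start elsewhere are not. Alternatives tried were the pseudocount, the filter, 3 scalings, the choice of transcripts and, added after seeing the data, failed estimates kept.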

Additional observations from a re-analysis of the deposited data

How the results depend on the processing

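Among the transporters past 2-fold, 15 of 15 in Ngn3-TOMATO over Ngn3-negative, 15 of 16 in GIP-GFP over Ngn3-negative and 8 of 8 in GIP-GFP over Ngn3-TOMATO kept their sign in every setting that gave a value. Of these, 9, 11 and 5 stayed past 2-fold in every such setting. With a pseudocount of 5, 2 of 35 transporters were higher in Ngn3-TOMATO over Ngn3-negative, where 11.2% of all genes were higher. Lower ones in GIP-GFP over Ngn3-TOMATO were then 3 of 36, where 4.91% of all genes were lower. The low genes Slc38a3, Slc43a1, Slc1a4 and Slc36a4 were among those no longer past 2-fold. That pseudocount also took all genes higher in Ngn3-TOMATO over Ngn3-negative from 2571 to 1485. With totals made equal without the 20 most abundant genes, 6 of 33 transporters were lower in GIP-GFP over Ngn3-negative, against 11.0% of all genes. Slc1a5, Slc3a2, Slc43a2, Slc7a8 and Slc6a9 then fell within 2-fold. That scaling moved the median of all genes to 0.18 in Ngn3-TOMATO and 0.26 in GIP-GFP over Ngn3-negative, and plain equal totals to -0.20 and -0.13. The share of higher genes among all genes past 2-fold was 66.0% in Ngn3-TOMATO over Ngn3-negative and 53.5% with equal totals. With only transcripts that share both ends with the annotation, 15, 14 and 14 transporters were left. Counts were then 5 higher and 1 lower in Ngn3-TOMATO over Ngn3-negative, where 21.4% of all genes were higher and 11.0% lower. They were 3 higher and 3 lower in GIP-GFP over Ngn3-negative (23.3% and 16.1% of all genes), and 0 higher and 4 lower in GIP-GFP over Ngn3-TOMATO (9.84% and 11.6%). Slc3a2 then reversed to 3.86 in GIP-GFP over Ngn3-negative, because only its upstream transcript, listed at 0 in Ngn3-negative, was left. Slc6a19 ranged from 1.39 to 1.83 in GIP-GFP over Ngn3-negative and Slc38a11 from 4.42 to 5.73 in Ngn3-TOMATO over Ngn3-negative.

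No paired analysis was possible because each group has 1 library and the labels give no shared replicate numbers. Genes at low depth, such as Slc38a11 in GIP-GFP at 0.643 reads per base, have wide intervals. The libraries differ in depth and in their most abundant transcripts, and the sources used here do not say which library term the deposited FPKM carries.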
